A study of Mus musculus with 66 samples.

Results

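ATAC-seq, which reads how open chromatin is by where the Tn5 transposase can insert into DNA, was compared across all regions of a union peak set between mouse small intestinal organoids grown in CV and in ENR. The comparison covered every region of the set, and 94166 of its 94469 regions had a score above 0 in at least 3 of the 12 ATAC libraries and were tested. It used 8 of the 66 libraries of the study, 4 CV and 4 ENR. Another 4 libraries of EN organoids entered the same fit to share its estimate of the spread, and their values are given only beside those of CV and ENR, since EN and CV would share ENR as their control.

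All organoids carried the Lgr5 GFP-DTR allele (Lgr5 GFPDTR/+), which puts a green fluorescent protein and a diphtheria toxin receptor at the stem cell gene Lgr5. ENR medium held epidermal growth factor, Noggin and R-Spondin-1 and is the organoids' normal growth medium. CV organoids, labelled as enriched for stem cells, had the full ENR medium plus CHIR99021 at 3 µM and valproic acid at 1 mM for 5 days, and EN organoids, labelled as differentiated, lacked R-Spondin-1 for 2.5 days. The libraries were numbered with no statement that each came from a separate culture, so p-values measure the spread between these libraries, which may be technical. Libraries of whole organoids mix cell types, and fewer cells of a type and less accessible chromatin per cell cannot be told apart here.

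CHIR99021 inhibits the kinase Gsk3 and so keeps beta-catenin, the effector of Wnt signalling, from being degraded, and beta-catenin is brought to DNA by TCF and LEF proteins. Valproic acid inhibits class I histone deacetylases, which remove acetyl groups from histones. In the intestinal crypt, Wnt signals maintain the stem cells and Paneth cells, while enterocytes, goblet, enteroendocrine and tuft cells form as cells leave that niche. The marks H3K27ac and H3K4me3 lie at active enhancers and promoters, and H3K27me3 is placed by Polycomb complexes on genes kept silent.

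The sequences below, from the forward strand of mm9 (NCBIM37), are the central bases of the regions with the 3 largest rises and 3 largest falls and of 4 regions described later. They show which letters lay in the regions that changed most. Capitals mark letters of the AP-1 (TGANTCA), TCF/LEF (CTTTGAT), CDX (TTTATNG), CRE (TGACGTCA), HNF4 (CAAAGTCCA), HNF1 (GTTAATNAT), FOXA (TGTTTAC) and Gata-factor (TGATAA) motifs on either strand, and the other bases are in lower case. The Snap25 sequence holds 106 bases, because 194 exonic bases of its central 300 were left out.
Peg3, chr7:6681144-6681443: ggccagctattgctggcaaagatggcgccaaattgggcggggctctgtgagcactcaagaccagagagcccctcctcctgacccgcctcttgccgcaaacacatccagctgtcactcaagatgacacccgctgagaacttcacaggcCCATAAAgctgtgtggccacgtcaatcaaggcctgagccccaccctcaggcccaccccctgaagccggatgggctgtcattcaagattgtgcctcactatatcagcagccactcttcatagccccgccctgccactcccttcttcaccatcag
Slc39a10, chr1:47602543-47602842: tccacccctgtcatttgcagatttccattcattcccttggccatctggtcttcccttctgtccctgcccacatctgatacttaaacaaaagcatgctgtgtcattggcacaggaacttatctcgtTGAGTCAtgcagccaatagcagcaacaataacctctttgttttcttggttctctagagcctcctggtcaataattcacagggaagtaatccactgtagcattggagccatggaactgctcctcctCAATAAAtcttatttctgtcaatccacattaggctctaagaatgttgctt
Snap25, chr2:136539337-136539442: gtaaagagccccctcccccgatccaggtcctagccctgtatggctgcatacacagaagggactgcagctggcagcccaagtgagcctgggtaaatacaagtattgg
Fam49a, chr12:12313162-12313461: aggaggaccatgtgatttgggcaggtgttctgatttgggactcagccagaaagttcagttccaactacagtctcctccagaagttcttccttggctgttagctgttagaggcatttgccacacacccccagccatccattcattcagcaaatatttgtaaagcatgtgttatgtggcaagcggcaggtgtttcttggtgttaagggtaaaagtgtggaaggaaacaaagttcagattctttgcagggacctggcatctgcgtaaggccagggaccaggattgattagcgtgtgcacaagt
Xpnpep1, chr19:52972708-52973007: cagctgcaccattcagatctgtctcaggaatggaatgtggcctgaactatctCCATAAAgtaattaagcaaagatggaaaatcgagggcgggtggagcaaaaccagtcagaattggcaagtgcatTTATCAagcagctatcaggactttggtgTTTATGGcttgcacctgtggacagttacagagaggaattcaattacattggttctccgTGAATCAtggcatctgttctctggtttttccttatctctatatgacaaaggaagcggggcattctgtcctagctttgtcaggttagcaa
Gm12888, chr4:120994756-120995055: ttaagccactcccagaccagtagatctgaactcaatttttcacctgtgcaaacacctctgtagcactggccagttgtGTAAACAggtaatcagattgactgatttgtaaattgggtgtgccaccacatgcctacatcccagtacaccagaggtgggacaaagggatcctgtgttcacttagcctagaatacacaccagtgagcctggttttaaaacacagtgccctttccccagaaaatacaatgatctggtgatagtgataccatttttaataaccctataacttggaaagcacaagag
Cd44, chr2:102718723-102719022: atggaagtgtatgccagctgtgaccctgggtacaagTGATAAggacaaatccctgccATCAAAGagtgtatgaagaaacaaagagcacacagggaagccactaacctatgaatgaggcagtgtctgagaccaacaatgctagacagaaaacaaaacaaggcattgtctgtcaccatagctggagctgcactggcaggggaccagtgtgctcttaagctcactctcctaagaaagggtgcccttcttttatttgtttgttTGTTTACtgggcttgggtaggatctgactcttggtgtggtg
Olfm4, chr14:80381307-80381606: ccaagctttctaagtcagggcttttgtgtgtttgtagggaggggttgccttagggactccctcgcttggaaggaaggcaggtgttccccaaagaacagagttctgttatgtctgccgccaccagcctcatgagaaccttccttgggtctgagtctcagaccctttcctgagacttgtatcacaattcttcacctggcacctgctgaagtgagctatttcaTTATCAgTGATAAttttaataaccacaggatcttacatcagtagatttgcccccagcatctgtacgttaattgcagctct
Hpgds, chr6:65107332-65107631: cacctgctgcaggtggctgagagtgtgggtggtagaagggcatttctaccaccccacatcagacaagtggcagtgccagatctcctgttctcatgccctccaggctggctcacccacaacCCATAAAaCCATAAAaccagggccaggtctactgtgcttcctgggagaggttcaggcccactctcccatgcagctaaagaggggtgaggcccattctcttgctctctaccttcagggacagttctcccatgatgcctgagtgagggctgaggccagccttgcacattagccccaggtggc
Bmp3, chr5:99271818-99272117: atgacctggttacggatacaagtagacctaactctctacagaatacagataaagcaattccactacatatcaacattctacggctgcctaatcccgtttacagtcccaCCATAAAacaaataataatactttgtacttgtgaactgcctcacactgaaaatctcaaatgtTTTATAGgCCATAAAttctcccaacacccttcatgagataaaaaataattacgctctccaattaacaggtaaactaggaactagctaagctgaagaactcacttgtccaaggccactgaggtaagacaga

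The Peg3 sequence, the largest rise, held 1 CDX match at base 148 counted from its first base. The Slc39a10 sequence held an AP-1 match at base 126 and a CDX match at base 251. No match of the 8 motifs lay in the shown bases of Snap25 or in those of Fam49a, the largest fall. The Cd44 sequence, from an intron of a Wnt target gene, held 1 TCF/LEF match at base 58. CDX letters occurred in the Peg3 and Slc39a10 rises and in the Xpnpep1, Hpgds and Bmp3 falls, and a match says only that the letters are there.

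Between CV and ENR, 7467 regions changed, 7.93% of those tested, with more regions lower than higher in CV. Accessibility was higher in CV at 2270 regions (2.41%) and lower at 5197 (5.52%). A region was called changed at a Benjamini-Hochberg adjusted p under 0.01 with limma on log2(score + 1), where the score is the authors' normalized and rounded read count per region. On this scale the median difference, CV minus ENR, was 1.39 over the regions that rose and -1.31 over those that fell, against -0.07 over all regions tested. A change of at least 2-fold was reached by 1798 of the rises and 3812 of the falls, and of at least 4-fold by 292 and 487. The score of every CV library lay above that of every ENR library in 6753 regions (7.17%) and below in 11782 regions (12.5%), and 2252 of the called rises and 5122 of the called falls were of these kinds.

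Summed over all regions, the scores ran from 1752385 to 1840402 in the CV libraries and from 1897795 to 1962331 in the ENR libraries, without overlap, and how the authors scaled the libraries to each other is not given in the sources used here. Rises were 30.4% of all changed regions as deposited, but 42.6% (3087 rises and 4153 falls) when the libraries were scaled to equal sums and 40% (3045 and 4573) after quantile normalization. The median of all regions became 0.02 with equal sums. Without ENR library 1, 2 or 4 the number of changed regions was 4831, 4535 or 4895.

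**Figure D1:**
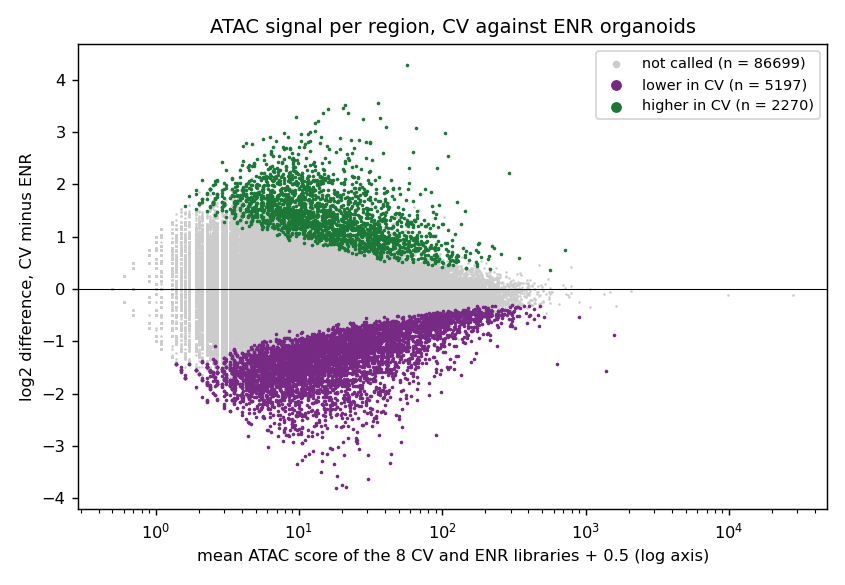
Each point is 1 of 94166 regions, with the mean ATAC score of the 8 CV and ENR libraries plus 0.5 on the log horizontal axis and the fitted log2 difference, CV minus ENR, on the vertical axis. Green points are the 2270 regions higher in CV and purple points the 5197 lower in CV, and called differences reach from -3.80 to 4.28.

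Rises lay near gene starts more often than falls did. Of the rises, 529 (23.3%, 95% Wilson interval 21.6 to 25.1) were no more than 500 bp from a transcription start in the annotation, against 752 of the falls (14.5%, 13.6 to 15.5) and 19.2% of all regions tested (19 to 19.5). These intervals cover the counting of regions, which are not replicates. The difference in position between rises and falls kept its direction when the call used an adjusted p under 1e-05 (49.2% and 8.75%) and in a fit without the mean-variance trend (18.3% and 7.48%). Both kinds of changed region were wide, with a median of 348 bp for rises and 372 bp for falls against 221 bp for all regions. Their median GC content was 50.0% and 49.3%, against 49% for all regions. Rises started from a low level, with a mean score of 33.6 in CV, 15.0 in ENR and 15.7 in EN, and falls from a high one, with 22.6, 43.7 and 46.1. Over the chromosomes, the share of regions that rose ran from 1.32% on chromosome 19 to 3.2% on chromosome 6, and the share that fell from 3.51% on chromosome X to 7.94% on chromosome 1.

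The largest rise lay in an intron of Peg3, an imprinted gene for a zinc-finger protein, 1457 bp from its start (chr7:6680915-6681673). Its scores were 101, 132, 103 and 97 in the CV libraries, 6, 3, 4 and 6 in ENR and 3, 2, 8 and 4 in EN. The log2 difference was 4.28 ± 0.29 (SE, limma adjusted p = 1.15e-07). Separate CV and ENR scores were a condition for naming a region among the largest rises and falls. All 5 tested regions of Peg3 rose, by 1.61 to 4.28, and its RNA rose from 2.03 ± 0.732 to 8.45 ± 1.48 CPM (counts scaled to a fixed library sum; SD, n = 4; edgeR adjusted p = 2.62e-06). H3K27ac at the intronic region was 19 ± 3.46 in CV and 1.67 ± 1.15 in ENR (SD, n = 3, limma adjusted p = 0.00448), a call lost in 8 of 10 alternative fits, with adjusted p from 0.00363 to 0.368.

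The next rises were mostly regions almost closed in ENR. An intergenic region of chromosome 1, 691518 bp from the nearest annotated start, that of the zinc importer gene Slc39a10, scored 69, 54, 71 and 66 in CV and 5, 3, 7 and 4 in ENR (log2 difference 3.56 ± 0.30). At exon and start of Snap25, a SNARE protein of vesicle release in neurons and endocrine cells, CV scored 37, 34, 36 and 42 and ENR 2, 3, 2 and 3 (3.46 ± 0.32). The EN scores of both regions were at most 5. Regions at Prim2, Zfp503, A830082K12Rik, Adamts1 and Gpr98 rose by 3.22 to 3.45, from ENR scores of at most 6.

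At the start of Lifr, the receptor for leukemia inhibitory factor (chr15:7078892-7080463), CV scored 67, 69, 87 and 66 and ENR 8, 5, 10 and 8 (log2 difference 3.09 ± 0.25, limma adjusted p = 6.53e-07). The start of Plod2, an enzyme that hydroxylates lysine in collagen (chr9:92436728-92437664), scored 152, 118, 90 and 106 in CV against 14, 10, 18 and 10 in ENR (3.08 ± 0.31, limma adjusted p = 4.18e-06). Both starts were open in every CV library and near closed in ENR and EN, where EN scored at most 13. Plod2 RNA was 120 ± 9.34 CPM in CV and 0.671 ± 0.331 CPM in ENR (SD, n = 4; log2 difference 7.38 ± 0.15, edgeR adjusted p = 2.17e-14). H3K27me3 at the Plod2 start was 11.3 ± 0.577 in CV and 59 ± 23.6 in ENR, and at the Lifr start 7 ± 1 and 48.3 ± 26 (SD, n = 3), with limma adjusted p of 0.0309 and 0.0183, which did not pass.

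The largest falls lay away from annotated starts. In an intron of Fam49a (chr12:12313090-12313535), 44145 bp from its start, the scores were 2, 0, 3 and 2 in CV and 40, 29, 38 and 27 in ENR (log2 difference -3.80 ± 0.49, limma adjusted p = 4.79e-05). In an intergenic region of chromosome 19 whose nearest start, 139974 bp away, is that of the aminopeptidase gene Xpnpep1, they were 3, 2, 5 and 0 in CV and 39, 33, 44 and 41 in ENR (-3.78 ± 0.44). At both, EN was as low as CV, at 0 to 6. Regions whose nearest genes are Gm12888, Abpd, Olfr948 and Chst2 showed log2 differences of -3.75, -3.49, -3.34 and -3.29 and likewise scored at most 9 in EN.

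Another fall was closed in CV but open in both ENR and EN. The region nearest Gm15389, 254693 bp away (chr1:109838278-109838918), scored 4, 2, 6 and 3 in CV, 49, 53, 72 and 49 in ENR and 48, 61, 92 and 78 in EN (log2 difference, CV minus ENR, -3.63 ± 0.25, limma adjusted p = 1.15e-07). The region 68815 bp from Gm12484 scored 12, 5, 5 and 7 in CV against 71, 71, 106 and 67 in ENR (-3.32 ± 0.23). ENR was the highest of the cultures at regions near Bnc1, a zinc-finger protein gene of epithelia, and Gm11033, where ENR scored 32 to 38 and 49 to 58, CV at most 7 and EN 13 to 31.

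**Figure D2:**
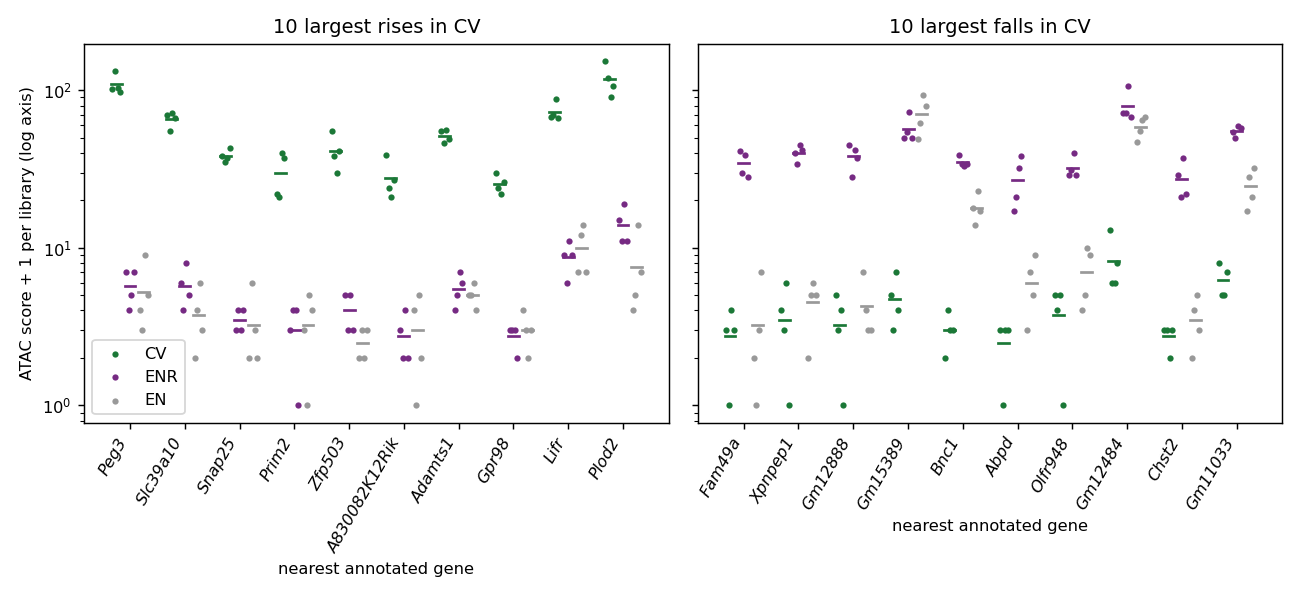
ATAC score plus 1 on a log axis in each library (points) and the culture mean (lines) at the regions with the 10 largest rises and 10 largest falls in CV against ENR, one region per nearest gene. No overlap between CV and ENR points was a condition for choosing these 20 regions. The EN points of the fall nearest Gm15389 overlap those of ENR, while at 6 other falls they are at most 9.

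Rises came in clusters at some genes, which were picked by their number of called regions. Over all genes, 2.34% of regions rose and 5.1% fell, and regions of 1 gene are not replicates. Of the regions with Zfp503, a zinc-finger repressor gene, as their nearest start within 50000 bp, 7 of 10 rose, by 1.25 to 3.37. At Adamts1, a secreted metalloprotease, 6 of 10 rose, at Schip1 6 of 12, at the homeobox gene Msx1 5 of 12, at Igfbp5, which binds insulin-like growth factors, 4 of 7 and at Ppargc1a, a coactivator of mitochondrial genes, 4 of 11. Falls were clustered at Xylt1, an enzyme that starts proteoglycan chains (7 of 16), Edn2, an endothelin (7 of 17), Lamb3, a laminin chain (5 of 8), Tspan15 (5 of 11) and the alcohol dehydrogenase Adh1 (5 of 13). Adh1 RNA averaged 635 ± 26.7 CPM in CV against 1794 ± 112 CPM in ENR, and Tspan15 RNA 66.6 ± 2.87 against 124 ± 3.09 CPM (SD, n = 4), both lower by edgeR (adjusted p = 5.03e-13 and 3.23e-10). Lamb3 RNA went the other way, at 179 ± 8.94 CPM in CV against 94.1 ± 5.93 CPM in ENR (edgeR adjusted p = 4.68e-09). Clusters of falls at Vps13d (8 of 37), Sfi1 (5 of 25) and Gm10290 (5 of 6) were found too, and whether reads there are shared with near-identical copies was not tested.

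Some regions of Wnt target genes rose and others fell. Of 161 regions assigned to 19 Wnt targets, 7 rose and 5 fell, with a median log2 difference of 0.07, and all genes together had 1786 rises (2.34%) and 3902 falls (5.1%) in 76436 regions with a median of -0.07. An intronic region of Cd44, an adhesion receptor (chr2:102718669-102719077), scored 20, 23, 23 and 25 in CV, 6, 3, 4 and 5 in ENR and 1, 2, 5 and 5 in EN (log2 difference 2.14 ± 0.33, limma adjusted p = 0.00025). At its start the cultures overlapped, with 36, 43, 32 and 46 in CV and 44, 39, 42 and 34 in ENR (-0.03 ± 0.18, limma adjusted p = 0.953). Cd44 RNA was 147 ± 9.75 CPM in CV and 36.1 ± 3.15 CPM in ENR (SD, n = 4, edgeR adjusted p = 1.13e-11).

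The region at the start of Tnfrsf19, a Wnt-induced receptor also called Troy, scored 35, 30, 25 and 36 in CV and 15, 11, 9 and 14 in ENR, and its RNA was 11.8 ± 1.34 CPM in CV against 0.398 ± 0.179 CPM in ENR. At Lef1, a partner of beta-catenin, the region 238 bp from the start scored 44, 38, 40 and 30 in CV and 14, 18, 19 and 19 in ENR. Neither pair overlapped, and the differences were 1.31 ± 0.26 and 1.07 ± 0.26 (limma adjusted p = 0.00195 and 0.00917). The Lef1 call was lost in 9 alternative fits, with every library left out in turn among them (limma adjusted p = 0.0126 to 0.0365). A region 41006 bp from Axin2, a feedback inhibitor of Wnt, fell from 47, 35, 32 and 41 in ENR to 14, 15, 10 and 15 in CV (-1.46 ± 0.30, limma adjusted p = 0.00254), a call lost without the trend and without CV library 3 or ENR library 1 or 4 (adjusted p = 0.0104 to 0.014).

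Starts of the stem cell genes Lgr5, Axin2, Ascl2 and Sox9 did not pass the test. At the larger start region of Lgr5, the R-Spondin receptor, CV scored 57, 45, 41 and 57, ENR 36, 41, 60 and 53 and EN 28, 15, 11 and 13. CV and ENR overlapped there (log2 difference 0.09 ± 0.24, limma adjusted p = 0.858). Axin2 scored 102, 95, 97 and 107 in CV and 127, 117, 119 and 134 in ENR, without overlap but at a limma adjusted p of 0.109. For Ascl2 and Sox9 the differences were 0.23 ± 0.18 and -0.08 ± 0.18 (limma adjusted p = 0.449 and 0.824). RNA of Lgr5 was 90.1 ± 3.61 CPM in CV against 129 ± 4.88 CPM in ENR, and that of Axin2 69.3 ± 4.34 and 80.7 ± 4.34 CPM (SD, n = 4), both lower in CV by edgeR (adjusted p = 2.98e-06 and 0.00399).

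Olfm4, a secreted glycoprotein that marks crypt base cells and depends on Notch, was the stem cell marker with the largest fall. The region 18456 bp from its start (chr14:80381261-80381653) scored 3, 3, 3 and 2 in CV, 31, 23, 32 and 35 in ENR and 6, 3, 5 and 3 in EN (log2 difference -3.05 ± 0.26, limma adjusted p = 1.09e-06). At the start CV scored 14, 19, 16 and 14 and ENR 33, 28, 40 and 36 (-1.07 ± 0.24, limma adjusted p = 0.00526), a call lost in 9 alternative fits, both rescalings included (adjusted p = 0.0102 to 0.0226). No CV score overlapped an ENR score in either region. Its RNA was 10.9 ± 6.42 CPM in CV and 1229 ± 61.7 CPM in ENR (SD, n = 4, edgeR adjusted p = 1.26e-13). Over the list of 20 stem cell markers, 7 of 192 regions rose (3.65%) and 11 fell (5.73%, median -0.11), against 2.34% and 5.1% over all genes. With equal sums 9 rose and 6 fell, and after quantile normalization 9 and 7. The intronic region of Hopx, a homeodomain protein of reserve stem cells, rose from 14, 12, 8 and 10 to 31, 43, 34 and 30 (1.58 ± 0.30, limma adjusted p = 0.00137).

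Notch pathway genes had 1 rise (0.704%) and 9 falls (6.34%) in 142 regions (median -0.11), all away from starts. Over all genes the shares were 2.34% and 5.1%. The Notch counts were 4 and 7 with equal sums and 5 and 8 after quantile normalization. The intronic region of Lfng, a sugar transferase that tunes Notch receptors, scored 75, 64, 49 and 44 in CV and 142, 145, 110 and 114 in ENR (-1.15 ± 0.25, limma adjusted p = 0.00418), a call lost in 6 alternative fits (adjusted p = 0.0108 to 0.0267). The starts of Hes1, a Notch target, and Atoh1, which starts the secretory lineage, did not pass (limma adjusted p = 0.641 and 0.0502). Atoh1 scored 79, 74, 59 and 69 in CV and 52, 51, 59 and 48 in ENR, so that the cultures met at 59.

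Enterocyte genes had 4 rises (1.41%) and 33 falls (11.6%) in 284 regions, with a median of -0.25, against 2.34% and 5.1% over all genes. At an unadjusted p under 0.05 by limma 20 were higher and 76 lower, with no share over all genes given at that threshold. In an intron of Anpep, a brush border aminopeptidase, the scores were 6, 9, 4 and 3 in CV, 33, 46, 28 and 34 in ENR and 76, 78, 37 and 68 in EN (log2 difference, CV minus ENR, -2.54 ± 0.28, limma adjusted p = 9.41e-06). An intronic region of Slc15a1, a peptide transporter, scored 2, 7, 6 and 5 in CV, 22, 19, 23 and 19 in ENR and 75, 75, 91 and 105 in EN (-1.94 ± 0.25, limma adjusted p = 4.26e-05). CV lay below ENR in every library at both regions, and EN was the highest at Slc15a1. The region 1167 bp from Apoa1, an apolipoprotein, differed by -1.78 ± 0.23. RNA of these 3 genes was lower in CV too, from 94.2 ± 9.08 to 76.1 ± 1.99 CPM for Anpep and from 43.7 ± 6.25 to 11.3 ± 0.844 CPM for Slc15a1 (SD, n = 4, edgeR adjusted p = 0.000184 and 8.78e-10).

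At the start of Vil1, an actin bundler of microvilli, CV scored 81, 100, 92 and 97 and ENR 176, 171, 124 and 143 (-0.71 ± 0.13, limma adjusted p = 0.00105, and 0.022 without the trend), although Vil1 RNA was 1021 ± 21.9 CPM in CV and 861 ± 28.8 CPM in ENR. The start of the alkaline phosphatase gene Alpi scored 7 to 10 in CV and 8 to 10 in ENR (limma adjusted p = 0.93). Over the markers of RNA, Alpi was 157 ± 10.5 CPM in CV and 172 ± 11.7 CPM in ENR, Sis 1235 ± 85.2 and 4475 ± 158 CPM and Fabp1 3192 ± 168 and 1459 ± 94 CPM (SD, n = 4), so enterocyte transcripts did not all move one way.

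Intestinal transcription factor genes had 10 rises (3.24%) and 16 falls (5.18%) in 309 regions (median -0.12), against 2.34% and 5.1% over all genes. With equal sums they had 12 and 13. Cdx2, which keeps intestinal identity, fell at its start from 175, 168, 183 and 182 in ENR to 60, 78, 68 and 86 in CV (-1.28 ± 0.12, limma adjusted p = 1.8e-06). H3K27ac there was 108 ± 10.4 in CV and 121 ± 9.29 in ENR (SD, n = 3), and Cdx2 RNA was 232 ± 3.36 against 215 ± 2.89 CPM (SD, n = 4), neither passing its test (adjusted p = 0.777 by limma and 0.0243 by edgeR). At Vdr, the vitamin D receptor, a region 21828 bp away scored 14, 14, 15 and 13 in CV, 44, 44, 55 and 50 in ENR and 3, 5, 6 and 10 in EN (-1.71 ± 0.24). Starts of Hnf4a and Hnf4g, nuclear receptors of the enterocyte, scored 67 to 86 against 79 to 90 and 66 to 87 against 47 to 61. Hnf4g did not overlap between cultures and missed the threshold (0.58 ± 0.16, limma adjusted p = 0.017), but passed in 4 alternative fits (adjusted p = 0.00447 to 0.00739), while its RNA was 122 ± 5.03 CPM in CV against 369 ± 9.2 CPM in ENR.

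Among secretory lineages the lists differed in counts. Goblet cell markers had 1 rise and 9 falls in 74 regions (12.2% fell, median -0.11), and tuft cell markers 2 and 7 in 53 (13.2%, -0.25). Enteroendocrine markers had 5 rises (7.46%) and 2 falls (2.99%) in 67 regions (-0.06), and Paneth cell markers 2 rises (4.44%) and 1 fall (2.22%) in 45 (0.22). Over all genes 2.34% of regions rose and 5.1% fell. Falls at goblet genes included regions nearest Muc4, a membrane mucin (6, 14, 15 and 12 in CV, 38, 46, 26 and 39 in ENR), and Agr2, needed to fold mucins (16, 11, 13 and 10 against 27, 30, 41 and 42). Neither region's groups overlapped, and the log2 differences were -1.63 ± 0.26 and -1.41 ± 0.21 (limma adjusted p = 0.000356 and 0.000164). Muc4 RNA moved the other way from its region, at 56.9 ± 3.96 CPM in CV and 33.2 ± 2.24 CPM in ENR, while Agr2 RNA was 56.2 ± 1.94 against 261 ± 3.08 CPM (SD, n = 4, edgeR adjusted p = 3.08e-07 and 1.17e-13).

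The tuft cell gene Hpgds, a prostaglandin D synthase, had a region 12280 bp from its start (chr6:65107182-65107783) that scored 5, 6, 5 and 5 in CV, 45, 43, 45 and 47 in ENR and 33, 13, 15 and 19 in EN (-2.88 ± 0.23, limma adjusted p = 6.26e-07). Near Alox5ap, which feeds leukotriene synthesis, CV scored 8, 6, 6 and 3 and ENR 32, 32, 25 and 27 (-2.20 ± 0.23). Groups were separate at both. In RNA, by edgeR, 3 of the 9 tested goblet cell list genes were higher in CV and 6 lower, 1 of 13 enteroendocrine genes was higher and 12 lower, 6 of 6 tuft cell genes were lower, and of 10 Paneth cell genes 3 were higher and 7 lower. Over all genes, RNA of 2565 of 8060 was higher and of 2475 lower. Lower genes included Muc2 at 3.03 ± 0.392 against 111 ± 9.47 CPM, Chga at 2.67 ± 0.174 against 49.6 ± 2.16 CPM and Dclk1 at 0.383 ± 0.289 against 10.7 ± 0.823 CPM (SD, n = 4). Among Paneth cell markers, Lyz1 (2289 ± 111 against 2579 ± 65.9 CPM) and Defa24 (log2 difference -2.36 ± 0.07) were lower and Mmp7 (137 ± 9.65 against 118 ± 2.19 CPM) higher. The part that the share of these cells had in the ATAC scores was not tested.

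The start of Pax6, a homeobox factor of enteroendocrine and eye development (chr2:105515345-105515880), rose with the lowest adjusted p of the named regions. CV scored 132, 109, 94 and 96, ENR 16, 17, 16 and 17 and EN 17, 22, 24 and 27 (log2 difference, CV minus ENR, 2.62 ± 0.16, limma adjusted p = 6.39e-08). ENR and EN scored at most 27 where CV scored at least 94. H3K27me3 was 16 ± 3 in CV and 62.3 ± 23.4 in ENR (SD, n = 3, limma adjusted p = 0.0832). Isl1, a LIM homeobox factor, rose at its start from 33, 13, 22 and 14 to 72, 45, 50 and 49 (1.43 ± 0.25), and Foxa1 fell from 105, 106, 119 and 125 to 82, 75, 64 and 61 (-0.69 ± 0.13, limma adjusted p = 0.00124, and 0.021 without the trend). Over 19 secretory transcription factor genes, 3 of 89 regions rose (3.37%) and 2 fell (2.25%, median 0.06), against 2.34% and 5.1% over all genes.

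At Reg3b and Reg3g, antimicrobial lectins, regions scored 41, 33, 46 and 33 in CV against 5, 11, 14 and 9 in ENR and 56, 46, 41 and 66 against 22, 27, 30 and 24. Both were higher in every CV library (1.93 ± 0.40 and 0.98 ± 0.21, limma adjusted p = 0.00275 and 0.00334), but lost the call in 4 and 6 alternative fits (adjusted p up to 0.0149 and 0.0171). Their RNA was higher in CV, at 870 ± 147 against 505 ± 92.7 CPM and 2500 ± 76.9 against 481 ± 28.4 CPM (SD, n = 4). A region 15113 bp from Dclk1 scored 67, 52, 56 and 59 in CV and 41, 41, 45 and 31 in ENR (0.56 ± 0.14, limma adjusted p = 0.00877), a call lost in 9 alternative fits (adjusted p = 0.0125 to 0.0468).

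Hox and neuronal genes had more rises than falls. Hox genes, which pattern the body axis, had 6 rises (8.57%) and 0 falls by limma in 70 regions, with a median of 0.44. At an unadjusted p under 0.05, 20 were higher and 2 lower, a threshold for which no share over all genes is given here. Neuronal genes had 11 rises (10.7%) and 2 falls (1.94%) in 103 regions (0.25), and all genes together 2.34% and 5.1%. At the start of Hoxc6 (chr15:102828505-102829633) the scores were 29, 33, 28 and 43 in CV and 12, 7, 7 and 11 in ENR (1.76 ± 0.26, limma adjusted p = 0.000203). H3K27me3 there was 9.67 ± 7.09 in CV and 81.7 ± 6.51 in ENR, and H3K4me3 38.7 ± 6.81 and 5.67 ± 2.08 (SD, n = 3). The H3K27me3 difference of -3.28 passed (limma adjusted p = 4.78e-05), though not without the trend or without CV library 2 (adjusted p up to 0.0258), and that of H3K4me3 did not (adjusted p = 0.0112). At Elavl2, a neuronal RNA-binding protein, CV scored 125, 90, 107 and 101 and ENR 35, 39, 62 and 49 (1.20 ± 0.19).

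Imprinted genes had 10 rises (5.38%) and 7 falls (3.76%) in 186 regions (median 0.02), against 2.34% and 5.1% over all genes. The largest rises were at Peg3, Plagl1 (56, 42, 52 and 41 against 15, 13, 14 and 13) and Peg10 (27, 23, 43 and 21 against 5, 9, 10 and 8). The start of Cdkn2a, a cell cycle inhibitor silenced by Polycomb in many tissues, rose from 6, 5, 3 and 6 to 29, 27, 19 and 22 (2.09 ± 0.31, limma adjusted p = 0.000191), and the list of cell cycle genes that holds it had 4 rises and 4 falls in 145 regions (median -0.07). H3K27me3 at Cdkn2a was 28.3 ± 13.3 in CV and 73.3 ± 41.1 in ENR (SD, n = 3, limma adjusted p = 0.362). Fn1, fibronectin, rose at its start from 9, 10, 8 and 8 to 55, 42, 39 and 32 (2.12 ± 0.28), with RNA of 11.8 ± 1.97 CPM in CV and 0.0409 ± 0.0818 CPM in ENR (SD, n = 4). CV and ENR were separate at each of these regions.

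Markers of cell types other than epithelium were checked for the samples as a whole. Fibroblast and muscle markers had 3 rises (8.57%) and 1 fall (2.86%) in 35 regions (median 0.23), where all genes had 2.34% and 5.1%. Immune cell markers had 0 changes by limma in 20 regions (-0.07, with 3 higher and 2 lower at an unadjusted p under 0.05). Endothelial markers had 0 rises and 4 falls (7.02%) by limma in 57 regions (0.04, with 6 higher at an unadjusted p under 0.05). Of 5 epithelial markers in RNA, Epcam (1739 ± 29.2 CPM in CV against 1564 ± 17.7 CPM in ENR) and Cdh1 (382 ± 17 against 279 ± 21.2 CPM) were higher in CV, Krt8 (3242 ± 42.6 against 4043 ± 52.3 CPM) and Krt18 (544 ± 12.6 against 886 ± 34.9 CPM) lower (SD, n = 4), and Cdx2 did not pass. The immune marker Ptprc was 0.0331 ± 0.0663 and 1.16 ± 0.276 CPM and the fibroblast marker Col1a1 0.85 ± 0.249 and 0.145 ± 0.17 CPM (SD, n = 4), and the endothelial marker Pecam1 and the fibroblast marker Col3a1 were not among the transcripts tested. The start of Vim, vimentin, scored 24, 25, 15 and 23 in CV and 9, 11, 14 and 7 in ENR (1.03 ± 0.23, limma adjusted p = 0.00481), a call lost in 7 alternative fits, while Vim RNA was 2.96 ± 0.309 CPM in CV and 7.96 ± 0.665 CPM in ENR.

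Regions of growth factor pathway genes rose and fell, where all genes together had 2.34% rises and 5.1% falls. Bmp and Tgf-beta pathway genes had 7 rises (3.91%) and 11 falls (6.15%) in 179 regions (median -0.05). The counts were 13 and 11 with equal sums (0.05) and 12 and 10 after quantile normalization. A region 11080 bp from Bmp3, a ligand of the Bmp family (chr5:99271558-99272378), scored 60, 48, 49 and 67 in CV and 148, 157, 162 and 180 in ENR (-1.52 ± 0.14, limma adjusted p = 2.24e-06), and its RNA was 4.31 ± 1.08 CPM in CV against 324 ± 17.7 CPM in ENR (SD, n = 4). Regions of Id2 and Tgfbi, targets of this pathway, differed by -1.89 ± 0.24 and -1.60 ± 0.19. Yap and fetal-type genes had 6 rises (6.38%) and 4 falls (4.26%) in 94 regions (0.11). The start of Wwtr1, the Yap paralog Taz, scored 64, 48, 48 and 46 in CV and 30, 26, 29 and 21 in ENR (0.93 ± 0.17). A region 15271 bp from Cyr61, a Yap target, scored 67, 73, 60 and 65 against 182, 159, 198 and 161 (-1.39 ± 0.10).

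Histone deacetylase genes had 0 rises and 6 falls by limma in 50 regions (median -0.23, with 5 higher at an unadjusted p under 0.05), and the intronic region of Hdac7 scored 7, 7, 7 and 2 in CV, 37, 38, 26 and 29 in ENR and 3, 0, 2 and 3 in EN (-2.40 ± 0.41, limma adjusted p = 0.000592). Polycomb and H3K27 demethylase genes had 1 rise (0.87%) and 5 falls (4.35%) in 115 regions (-0.04), and 2 and 3 with equal sums (0.06). Over all genes 2.34% of regions rose and 5.1% fell. Drug response genes had 3 rises and 17 falls in 174 regions (9.77% fell, -0.15): near Cyp3a25, a drug-oxidizing cytochrome, CV scored 17, 20, 23 and 19 and ENR 81, 80, 111 and 98 (-2.17 ± 0.17). Interferon and antigen presentation genes had 0 rises and 4 falls (4.04%) by limma in 99 regions (-0.12, with 3 higher at an unadjusted p under 0.05). The largest fall was an intronic region nearest Irf8 (5, 9, 7 and 12 against 33, 43, 40 and 45, -2.21 ± 0.23).

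AP-1 and stress genes had 1 rise (0.935%) and 6 falls (5.61%) in 107 regions (median 0.01), against 2.34% and 5.1% over all genes. With equal sums they had 3 rises and 4 falls (0.11). The rise as deposited, 1648 bp from the start of Atf3, a stress-induced transcription factor, went from 13, 14, 18 and 11 in ENR to 28, 30, 35 and 33 in CV (1.13 ± 0.27, limma adjusted p = 0.00827), and was lost in 9 alternative fits (adjusted p = 0.0109 to 0.0331). H3K27me3 at this region was 2 ± 1 in CV and 48.3 ± 14.7 in ENR (SD, n = 3; log2 difference -4.06, limma adjusted p = 8.84e-06), a call kept in all 10 alternative fits of that mark. The start of Nfe2l2, the oxidative stress factor Nrf2, fell from 347, 341, 334 and 382 to 218, 252, 219 and 253 (-0.58 ± 0.08, limma adjusted p = 0.000129, and 0.0247 without the trend).

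Starts that opened in CV had less H3K27me3 and more H3K27ac there than in ENR. Over the 529 rises near starts, H3K27me3 averaged 11.5 ± 1.38 per region in CV and 27 ± 4.83 in ENR (SD, n = 3), a ratio of 0.428, against 0.844 over all 18058 regions near starts. H3K27ac was 24.9 ± 1.16 against 16.1 ± 0.531 (ratio 1.54, and 0.798 over all) and H3K4me3 31.8 ± 0.503 against 24.9 ± 1.21 (1.28, and 0.979). CV and ENR libraries did not overlap in any of these, and each exact permutation test gave p = 0.1, the smallest that 3 against 3 libraries allow. Over the 1740 rises elsewhere, H3K27ac was 8.84 ± 0.603 in CV and 4.59 ± 0.592 in ENR, a ratio of 1.93 against 1.3 over all regions elsewhere.

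Over the 752 falls near starts, H3K27ac was 64.1 ± 5.37 in CV and 89.1 ± 4.58 in ENR, a ratio of 0.719 that lies close to the 0.798 of all starts, and H3K27me3 was 9.77 ± 0.523 against 6.89 ± 0.505. The 4432 falls elsewhere had H3K27ac overlapping between CV and ENR, 12.3 ± 0.805 and 12.3 ± 1.55. Mark scores away from starts were higher in CV over all regions (ratios of 1.3 for H3K27ac, 1.49 for H3K4me3 and 1.31 for H3K27me3), and 54.5% to 59.7% of the H3K27ac score lay near starts in CV against 66.3% to 68.6% in ENR. What part this difference between libraries had in the mark values was not tested.

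**Figure D3:**
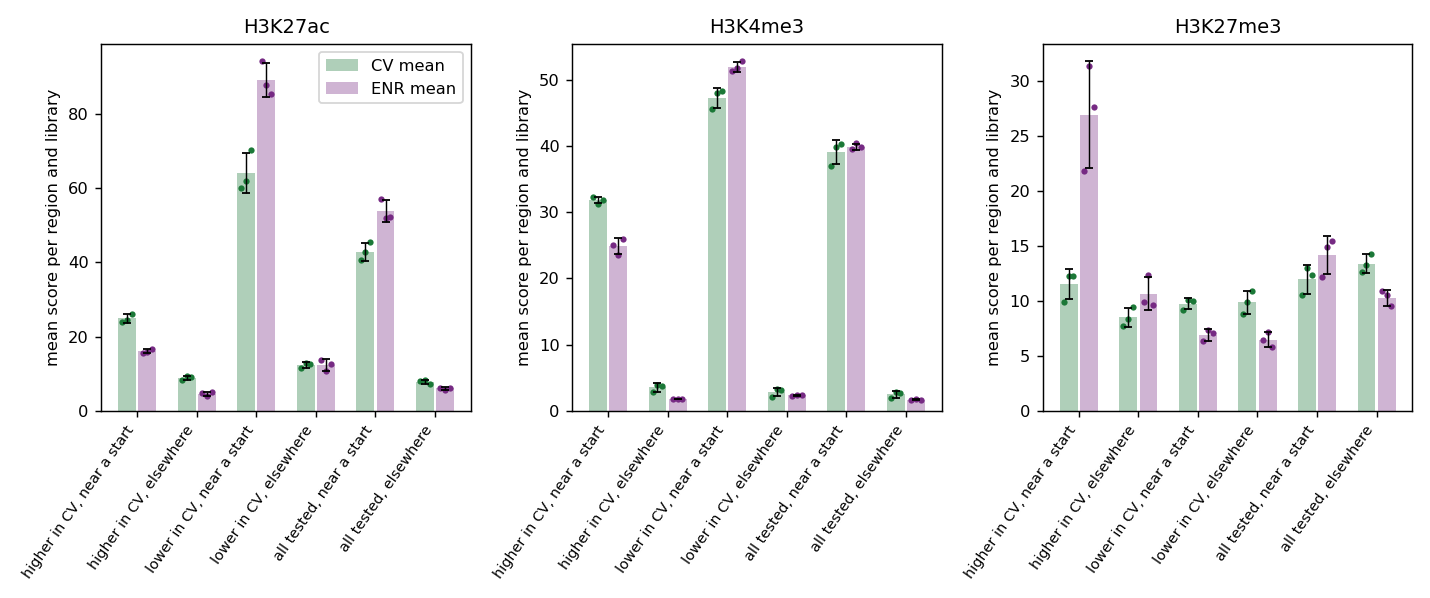
Mean score per region of each mark in 3 CV and 3 ENR libraries (points), with the culture mean (bars) and SD (lines), over regions whose ATAC score rose or fell, near a start (within 500 bp) or elsewhere. H3K27me3 at rises near starts is 11.5 in CV and 27 in ENR, while over all starts it is 12 and 14.2.

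Region by region, H3K27me3 fell at 248 regions (0.263% of 94466 tested) and rose at 34 (0.036%). Without ENR library 2 the falls were 225 and the rises 191. At an unadjusted p under 0.05 more regions were higher than lower in CV, 7128 against 2930 for H3K27me3 and 10425 against 4676 for H3K27ac. Of the 248, 60 (24.2%) were ATAC rises, a class that holds 2.41% of all regions, and they made up 2.64% of the 2270 rises. None of the 248 was among the ATAC falls, which hold 5.52% of all regions. In the 10 alternative fits of the mark the share of its falls that gained ATAC signal ran from 21.8% to 30.3%, while the number of falls ran from 21 to 478. H3K27ac rose at 62 regions (0.0658% of 94215) and fell at 528 (0.56%), of which 18 (29%) and 62 (11.7%) changed the same way in ATAC. Over all regions 2.41% rose and 5.52% fell in ATAC. The share of H3K27ac rises that rose in ATAC was 6.67% (1 of 15) without CV library 5, 9.09% (2 of 22) without ENR library 2, 0 of 1 without ENR library 4 and 20% to 33.3% in the other fits with any rise. All H3K27ac calls were lost without the trend and with a replicate block. Of the H3K27ac libraries, CV and ENR shared only number 4. The block thus left little to measure the spread with, and the loss of calls under it cannot be read. H3K4me3 gave 0 calls by limma among 77827 regions, with a lowest adjusted p of 0.0112 and 13078 regions at an unadjusted p under 0.05, and 380 calls without the trend.

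Hnf4g binding, read by ChIPmentation in 1 library per culture and so without a replicate check, was set beside the changed regions as a share of all reads in regions. Falls elsewhere held 4.36% of the CV reads (95% Wilson interval 4.22 to 4.5), 5.58% of the ENR reads (5.5 to 5.65) and 4.86% of the EN reads (4.83 to 4.89), and made up 4.69% of regions. Rises elsewhere, 1.84% of regions, held 1.34% of the CV reads (1.27 to 1.42), 0.975% of the ENR reads (0.943 to 1.01) and 0.825% of the EN reads (0.812 to 0.838). All tested regions elsewhere held 59.8%, 58.4% and 41.8% of the CV, ENR and EN reads. Falls near starts, 0.796% of regions, held 2.33%, 2.63% and 3.92%, and all tested regions near starts 39.7%, 41.2% and 58%. The libraries held 84340, 352600 and 1816497 reads, and the intervals cover counting error only.

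RNA of genes at rising starts mostly rose, while under 50% of genes at falling starts had lower RNA. RNA was called higher in CV for 2804 (30.2%) and lower for 2765 (29.8%) of 9288 transcripts tested with edgeR. Of 164 genes with a start region that rose and a tested transcript, 117 (71.3%) had higher RNA and 20 (12.2%) lower RNA in CV, with a median log2 difference of 1.00. For 475 genes with a start region that fell, 102 (21.5%) were higher and 234 (49.3%) lower (median -0.25). Over all 7827 genes with a tested start region the shares were 32.3% and 30.5%. Regions elsewhere, assigned to the nearest start within 50000 bp, gave 49.4% higher and 22.6% lower for 385 genes near a rise, and 25.8% and 43.1% for 988 genes near a fall. The transcript table was restricted by the authors to transcripts whose proteins had been quantified, and 164 of 559 genes with a rising start had a tested transcript in it.

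**Figure D4:**
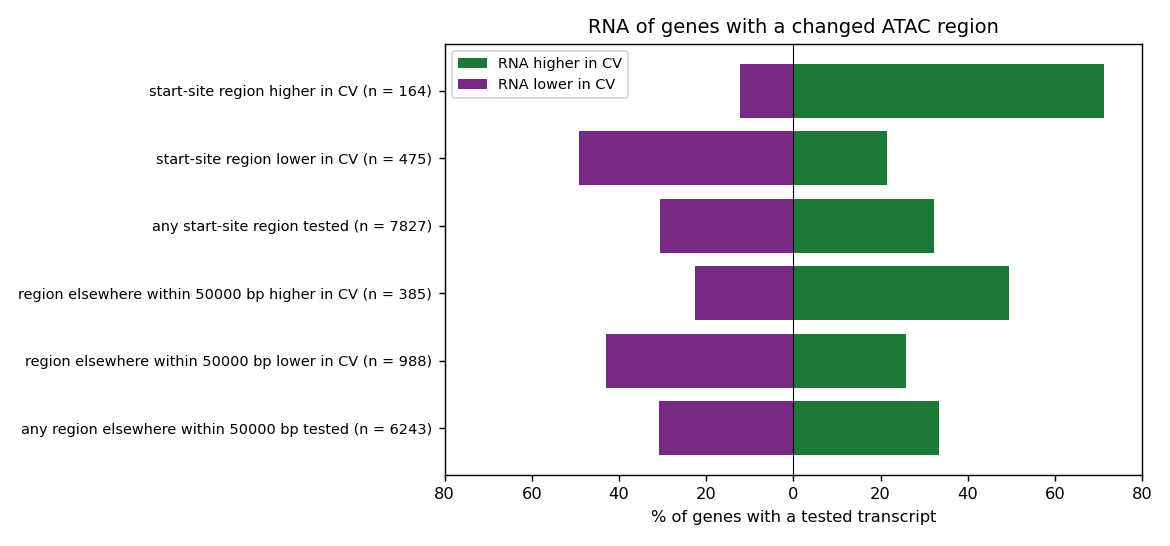
Share of genes, in percent of those with a tested transcript, whose RNA was higher (green, right) or lower (purple, left) in CV, for genes with a changed ATAC region at the start or elsewhere within 50000 bp and for all genes with a tested region. For rising starts the bars reach 71.3% and 12.2%, for falling starts 21.5% and 49.3%.

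Letters in the central 300 bp of the regions away from starts differed between rises and falls. AP-1 letters (TGANTCA) lay in 38.3% of 1740 rises (95% Wilson interval 36 to 40.6), 14.7% of 4432 falls (13.7 to 15.8) and 19.9% of all 75980 regions. The N stood for any base, so the search was wider than TGA(C/G)TCA, the site that Fos and Jun bind. The CRE (TGACGTCA, bound by Creb factors) was in 2.07%, 0.113% and 0.42%, CDX (TTTATNG) in 27.8%, 18.3% and 19%, and TCF/LEF (CTTTGAT) in 10.9%, 6.39% and 6.32%. All 4 were more frequent in rises than in all regions, by intervals that do not overlap, as were those of the KLF/SP, RFX and Gata factors. The intervals cover the counting of regions, which are not replicates, and no test was made between the shares. Starts included, AP-1 letters lay in 31.2% of rises and 13.4% of falls, and TCF/LEF letters in 9.34% and 5.81%.

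Falls held more HNF4 letters (CAAAGTCCA), with 4.67% against 1.9% of rises and 2.66% of all regions. HNF1 (GTTAATNAT) was in 3.32% of falls, 1.44% of rises and 1.99% of all, and FOXA (TGTTTAC) in 8.51%, 4.89% and 5.93%. CTCF (AGGGGGC) was in 2.87% of falls, 5.46% of rises and 5.6% of all. TEAD (GGAATG) was in 21.7% of falls, 18.2% of rises and 18.1% of all, and the Gata-factor motif (TGATAA) in 19.7%, 21% and 17%. Both strands were searched, and HNF4 and TCF/LEF letters can share the bases CTTTG.

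The other motifs searched are given as the share of rises, of falls and of all regions. KLF/SP (GGGCGTG) was in 5.11%, 3.25% and 3.74%, RFX (GTTGCCATG) in 0.977%, 0.451% and 0.454% and SOX (ACAATGG) in 5.11%, 3.86% and 4.06%. The E-box CAGCTG was in 19.3%, 23.5% and 19.1%, and the E-box CAGATG in 22.1%, 19.8% and 21.8%. ETS (CCGGAAG) was in 2.3%, 1.6% and 2.08%, RBPJ (GTGGGAA) in 6.15%, 6.5% and 6.52%, NFKB (GGGANTTCC) in 1.32%, 1.42% and 1.31% and SMAD (CAGACA) in 24.9%, 26.1% and 26.1%. REST (TTCAGCACC) was in 0.23%, 0.226% and 0.386%, POU (ATGCAAAT) in 1.21%, 2.03% and 1.72% and IRF (TTTCNNTTT) in 10%, 11% and 12.2%. Letters matched in a region are a description and not a bound site.

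**Figure D5:**
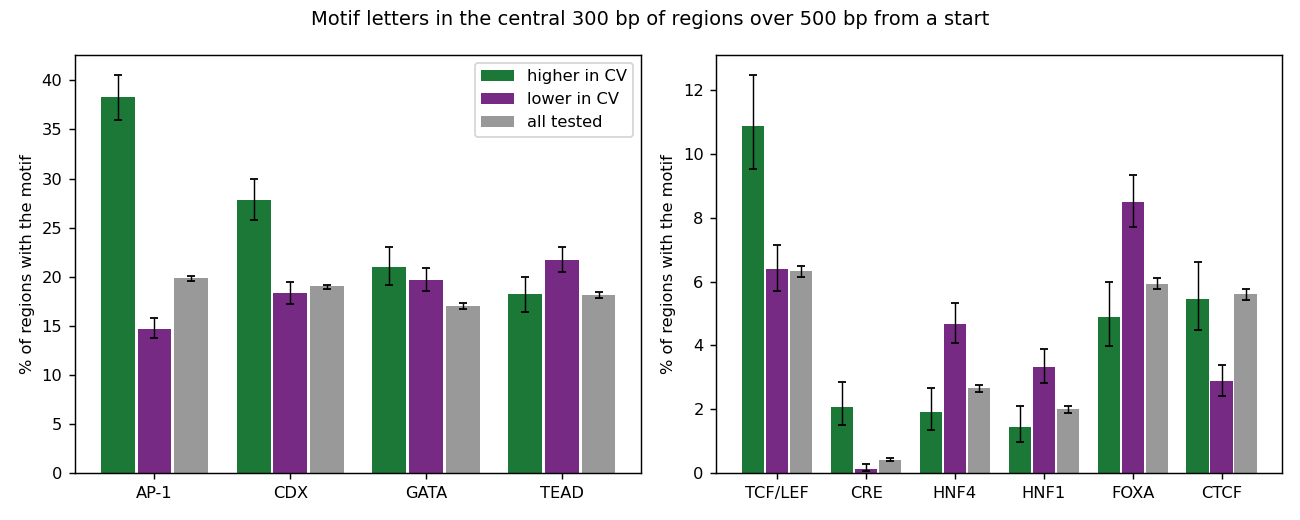
Share of regions over 500 bp from a start, in percent, whose central 300 bp hold the motif letters on either strand, for regions that rose, fell or were tested, with 95% Wilson intervals (lines). AP-1 stands at 38.3% in rises against 14.7% in falls, and HNF4 at 1.9% against 4.67%.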

How the data were processed

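ATAC-seq, H3K27ac, H3K4me3 and H3K27me3 values were scores that the authors deposited per region of a union peak set. They were read counts, normalized between libraries and rounded. Reads had been mapped to mm9 with BWA and duplicates removed with Picard, and mitochondrial reads were removed for ATAC-seq. Peaks were called with MACS 2.0. For H3K27me3 the paper states that peaks were extended to 1000 bp. The way libraries were scaled to each other, and any shift of reads for the transposase, are not given in the sources used here. RNA values were expected counts per transcript that the authors deposited from kallisto (0.43.0 in the submitters' processing notes), and Hnf4g values were raw read counts deposited by the authors. Of the columns deposited, 24 were not used. Region starts are given as in the file, which does not say whether it counts from 0 or 1.

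ATAC-seq had 4 libraries per culture and the marks 3. limma 3.58.1 (R 4.3.3), its prior variance following the mean score, was run on log2(score + 1) over the libraries of all 3 cultures of an assay, for regions above 0 in at least 3 libraries, with a call at a Benjamini-Hochberg adjusted p under 0.01. RNA was tested with edgeR 4.0.16 (quasi-likelihood, TMM) on counts rounded to whole numbers, without 92 spike-in rows, and with DESeq2 1.42.0 as an alternative. In data simulated with an assumed spread, changes were set only in regions with a mean score of at least 20. There limma called 71% of regions changed 2-fold and 100% of those changed 4-fold. Regions with lower scores, the larger part of those tested, were given no change, so these shares do not cover them. Precision was set by the number of libraries and by scores with a median of 5 or 6 in a CV or ENR ATAC library. RNA libraries summed to 5630977 to 8859757 counts.

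Regions were annotated with GENCODE vM1 start sites on mm9, near a start meaning within 500 bp, and other regions were assigned to the nearest start within 50000 bp for gene lists. Of 541 listed genes, 533 were matched. Named regions were the 10 largest rises and 10 largest falls among called regions whose groups did not overlap and whose mean score was at least 20 in the higher culture (1 per nearest gene), up to 4 genes of each list, and start sites of fixed genes. One gene that this rule names is not reported here. The lists, motifs and this rule were chosen with earlier results of these data known. Alternatives were other scalings, pseudocounts, filters and thresholds, a fit without the trend, a replicate block, fits of CV and ENR alone, and leaving out each library.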

Additional observations from a re-analysis of the deposited data

Results flagged for a closer look

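Of 166 groups of 4 ATAC scores at the named regions, 13 held 1 library set apart from the other 3 by Dixon's criterion. For unrounded normal values chance meets it in about 1 group of 20. These scores were whole numbers, and where 3 of them tie any other value is set apart, so that rate need not hold here. Among the CV libraries these were the scores of 87 at the Lifr start, 0 at the region nearest Abpd, 1 at the region nearest Chst2, 2 at the distal Olfm4 region, 6 at the Hpgds region, 64 at the Wwtr1 start and 2 at the Hdac7 region. Among the ENR libraries they were 1 at the region nearest Gpr98, 38 near Bnc1, 106 near Gm12484, 59 near Apoa1, 0 at the Dclk1 start and 25 at the Peg3 start. At the Dclk1 start every score of CV and ENR was 0 or 1. At the other 12 regions CV and ENR did not overlap with the set-apart library included. The naming rule required this of those among the largest rises and falls.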

How the results depend on the processing

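The count of changed ATAC regions was 323 at an adjusted p under 1e-05, 14860 at one under 0.05, and 4535 to 5574 with 1 library left out. H3K27ac calls were 0 without the trend, 0 with the replicate block and 57 (without ENR library 4) to 408 with 1 library left out. In that block CV and ENR shared only library number 4. H3K4me3 had 380 calls without the trend and 0 to 1005 (without CV library 2) with 1 library left out. H3K27me3 calls were 485 with equal sums, 21 without the trend, 68 with the replicate block and 72 (without ENR library 3) to 416 with 1 library left out. The cause was not tested. The share of rises near a start was 26.9% within 1000 bp, 49.2% at an adjusted p under 1e-05, 18.3% without the trend and 23.5% to 25.7% with 1 library left out. The share of falls was 16.7%, 8.75%, 7.48% and 12.9% to 15.6% in the same settings and 15.5% with the block. Searched over whole regions in place of the central 300 bp, motif letters lay in rises and falls at 36.2% and 18.8% for AP-1, 11.4% and 8.53% for TCF/LEF, 3.17% and 0.502% for CRE and 6.04% and 11.3% for FOXA, and in falls at 4.82% for HNF4 and 3.95% for HNF1.

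Same-numbered CV and ENR ATAC libraries deviated together with r of 0.191, 0.128, 0.073 and 0.116, all above 0. Libraries 1 and 2 of either culture ran against libraries 3 and 4 of the other, with r from -0.137 to -0.056. The labels state no pairing, and the main fit used no block. Whether libraries of like number shared a batch was not tested. CV library 3 correlated best with ENR library 4 (0.109), ENR library 3 with CV library 4 (0.08), and the others with their own number. With the replicate block 8747 ATAC regions were called (2637 higher, 6110 lower) and 5457 transcripts, against 5569 without it. None of the 93 called named regions changed direction in any alternative fit, and 68 to 93 of them kept the call. Most were picked for large changes in these same libraries, so a change of direction was unlikely from the start.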
